A study of Mus musculus with 8 samples.

Results

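The genes described here are 10 genes of the NRF2 pathway and of antioxidant defence, followed in the liver of fasted mice that carry either WT perilipin 5 or its S155A form. They are Nfe2l2 and Keap1 (the regulator and its sensor), Gclc and Gclm (glutathione synthesis), Nqo1, Txnrd1 and Srxn1 (quinone, thioredoxin and peroxiredoxin reduction), and Sod1, Sod2 and Gpx1 (removal of superoxide and peroxide). Each was found by its gene name among the 45706 genes of the count table, each matched 1 row, and 10 of 10 passed the filter on low counts, with estimated counts in single libraries from 478 for Nqo1 to 99790 for Gpx1.

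RNA was sequenced from the liver of 8 female C57BL/6J mice, 4 months old and fasted overnight, with 1 stranded mRNA library per mouse. The WT group held 4 mice, and the SA/SA group held 4 mice homozygous for the S155A change, which removes a serine that protein kinase A phosphorylates in PLIN5, a lipid droplet protein. The knock-in was made by CRISPR-Cas9 in the whole body under the endogenous Plin5 promoter, so the change was not limited to hepatocytes, and no fed group was analysed here. The labels give hepatocytes as the cell type and liver as the tissue.

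NRF2, the product of Nfe2l2, is a transcription factor that is made and destroyed continually. KEAP1 binds it and presents it to a ubiquitin ligase, and oxidants or electrophiles that modify cysteines of KEAP1 let NRF2 build up and enter the nucleus, where it pairs with small MAF proteins on antioxidant response elements. Most of this control acts on the protein, so the Nfe2l2 transcript is not a measure of NRF2 activity, and the transcripts of target genes such as Nqo1, Gclc, Gclm, Txnrd1 and Srxn1 are commonly used as its readout. The superoxide dismutases and GPX1 belong to basal antioxidant defence and are less dependent on NRF2.

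The core of the antioxidant response element was searched as TGACNNNGC on both strands of RefSeq promoter windows of build GRCm38.p6, each from 250 bases before to 50 bases after an annotated start. Of the 10 genes, 9 had at least 1 window, 11 windows in all, and 5 of these windows, each of a different gene, held the motif, against 12.4% of all 32851 windows. Gclc had no window. The matches are shown with the motif in capitals and 10 bases on either side, read in the direction of transcription:

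Nfe2l2, chr2:75704885-75704913, reverse strand: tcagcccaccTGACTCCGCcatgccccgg

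Gclm, chr3:122245413-122245441, forward strand: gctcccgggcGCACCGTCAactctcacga

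Txnrd1, chr10:82859104-82859132, forward strand: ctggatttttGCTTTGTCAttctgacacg

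Srxn1, chr2:152105542-152105570, forward strand: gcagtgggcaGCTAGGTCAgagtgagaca

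Sod1, chr16:90220696-90220724, forward strand: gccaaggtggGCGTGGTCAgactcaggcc

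The Nfe2l2 match is written as searched and begins 240 bases before the start, while the other 4 are its reverse complement. They begin 134 bases before the start in Gclm, 92 before 1 of the annotated starts of Txnrd1, 56 before the start in Sod1 and 28 after it in Srxn1. No match was found in the windows of Keap1, Nqo1, Sod2 and Gpx1. Such a match is a stretch of letters and was not tested for binding, and a window without one says nothing of elements farther away.

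Between the genotypes, none of the 10 genes passed an adjusted p of 0.05 in edgeR's quasi-likelihood test, and neither did any of the 14629 genes tested (0% called), where the smallest adjusted p was 0.758. Adjusted p-values of the 10 genes were 0.993 to 0.996. At an unadjusted p under 0.05 stood 1 of the 10, Gclc, against 3.40% of all genes tested. DESeq2 called 6 genes in all (0.0411%) and limma-voom none, with 594 (4.07%) and 466 genes (3.19%) at an unadjusted p under 0.05, and neither tool called a member. The log2 fold change (SA/SA minus WT) was above 0 for 7 of the 10 genes and for 48.8% of all genes, and its median was 0.080 over the 10 genes and -0.0050 over all genes. The 3 genes with a log2 fold change below 0 were Nfe2l2, Gclc and Gclm.

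Expression is given as CPM, counts scaled to a common library size after TMM normalisation, in the order replicate 1 to 4. The total count per library was 39709785 to 54540864 and the 50 most abundant genes took 33.7% to 36.0% of it. By the animal numbers in the labels, replicates 1 and 4 of either genotype belong to a low series (numbers under 200) and replicates 2 and 3 to a high series, which balances the series over the genotypes. What separates the series beyond the numbers is not given, and differences within each are set beside the pooled ones below. SA/SA replicate 3 stood apart in immune transcripts: its 12 markers of lymphocytes and plasma cells summed to 2069 CPM, against 20.3 to 48.7 in WT mice and 29.3 to 40.3 in the other SA/SA mice, with Ighm and Igkc making up most of it. The 12 markers were all higher in SA/SA, with a median log2 fold change of 0.98 and none past the adjusted threshold. At an unadjusted p under 0.05 in edgeR stood 4 of them, against 3.40% of all genes tested. In 1 of them, the T cell gene Cd3d, the genotypes did not overlap, against 2.30% of all genes. Cd3d was at most 0.50 CPM in WT and at 0.66 to 0.87 CPM in SA/SA mice. In the summed markers, the SA/SA mice other than replicate 3 lay within the WT range. Of 10 hepatocyte markers, 9 were in the table, and they summed to 97422 to 114801 CPM in WT mice and 93477 to 131564 in SA/SA mice, the highest values being those of SA/SA replicates 2 and 3. Alb made up most of each sum. Pancreatic acinar markers summed to at most 9.75 CPM. In whole liver, fewer cells of a type and less RNA per cell cannot be told apart. Plin5 itself, whose level does not check a point change, was at 206 ± 32.3 CPM in WT and 328 ± 118 (n = 4 each, SD) in SA/SA. Its log2 fold change was 0.67 (SE 0.24), with an unadjusted p of 0.0193 and an adjusted p of 0.993 in edgeR. The genotypes overlapped in Plin5, and the difference was 0.92 in the low and 0.29 in the high series.

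**Figure D1:**
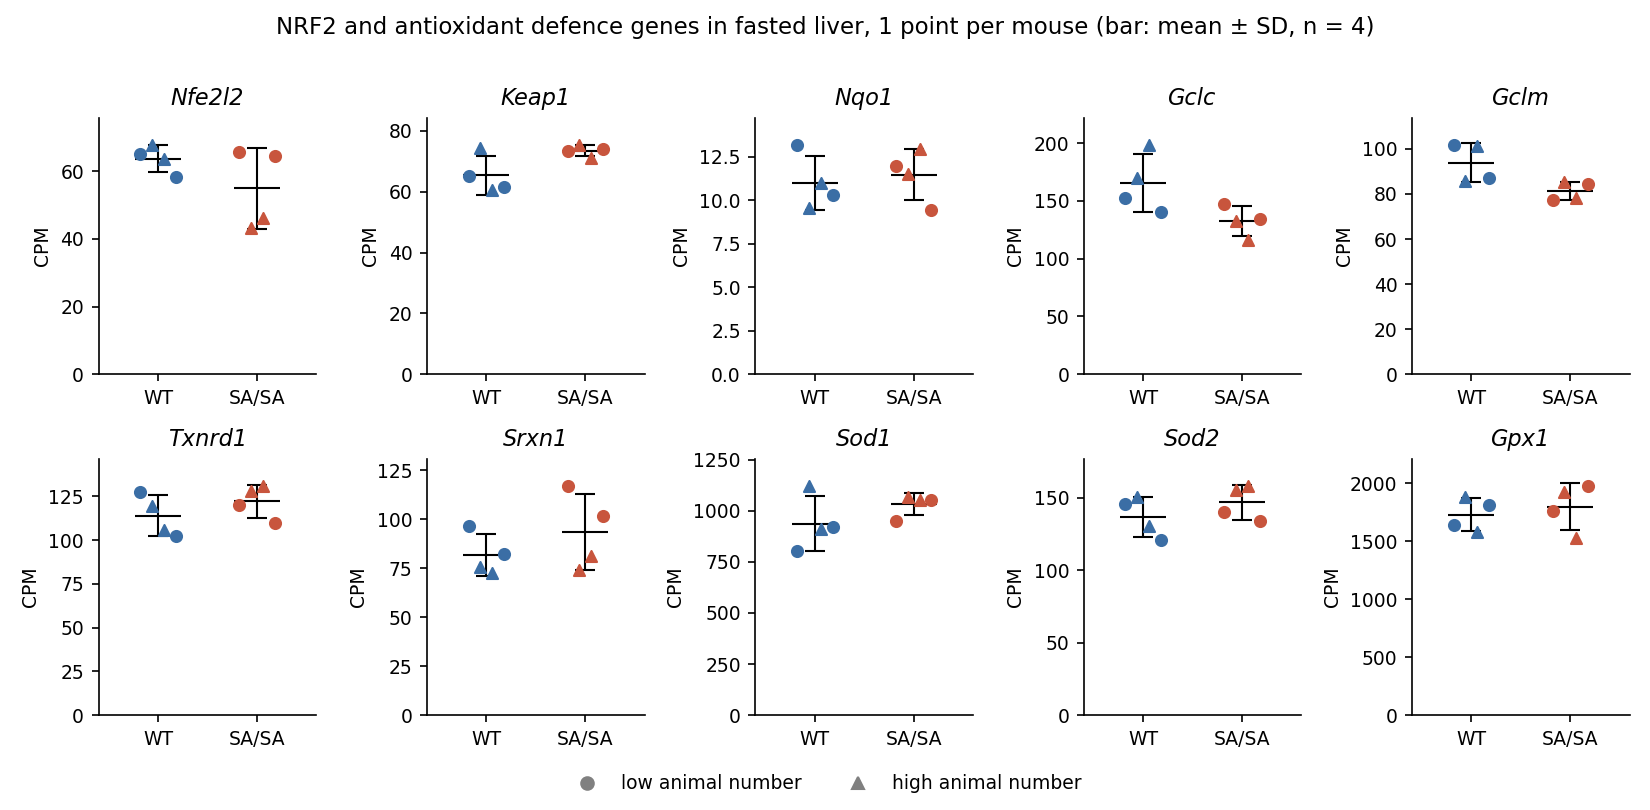
Expression of each gene in CPM (vertical axes, each from 0) in WT and SA/SA mice, 1 point per mouse, with circles for the low and triangles for the high animal numbers and bars for mean ± SD (n = 4). The genotypes are apart in Gclm alone, and the 2 SA/SA mice with high numbers sit low in Nfe2l2, at 43.3 and 46.1 CPM.

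Nfe2l2 (ENSMUSG00000015839) occupies chromosome 2 from 75675513 to 75704641, reverse strand, in build GRCm38, which holds for the coordinates of all 10 genes. It was at 65.2, 67.7, 63.7 and 58.3 CPM in the WT mice and at 65.8, 43.3, 46.1 and 64.6 CPM in the SA/SA mice. SA/SA replicates 2 and 3 were the lowest of the 8 mice, while SA/SA replicates 1 and 4 lay within the WT range, so the genotypes overlapped. The means were 63.7 ± 4.00 and 54.9 ± 11.9 CPM (SD, n = 4), a log2 fold change of -0.21 (SE 0.15, 95% interval -0.54 to 0.12), with an edgeR p of 0.181 and a two-sided exact permutation p of 0.286. The wider spread in SA/SA mice followed the animal numbers: within the low series the genotypes differed by 0.081 in mean log2 CPM, and within the high series by -0.56. The test of the difference between these (edgeR, interaction of genotype and series) gave -0.63 (SE 0.17, 95% interval -1.01 to -0.26), with an unadjusted p of 0.00445 and an adjusted p of 0.282, or 0.0862 by DESeq2. The difference thus did not pass the threshold over all genes, of which 11.1% were at an unadjusted p under 0.05 in this test.

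Keap1 (ENSMUSG00000003308), on chromosome 9 from 21229730 to 21239361 on the reverse strand, encodes the oxidant sensor that holds NRF2 down. It was at 65.1, 74.5, 60.5 and 61.5 CPM in WT mice and at 73.4, 75.3, 71.0 and 74.2 CPM in SA/SA mice. WT replicate 2 was as high as the SA/SA mice and the other WT mice were below them. The spread was small in SA/SA (73.5 ± 1.81 CPM) beside WT (65.4 ± 6.38 CPM). The log2 fold change was 0.17 (SE 0.095, 95% interval -0.045 to 0.38), with an edgeR p of 0.109 and an exact permutation p of 0.114, and the difference was 0.22 in the low and 0.12 in the high series. An antisense transcript, Gm16754, overlaps Keap1, but it held at most 8.13 counts in a library.

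Gclc and Gclm encode the catalytic and the modifier subunit of glutamate-cysteine ligase, which makes the first and rate-limiting step of glutathione synthesis. Both had lower means in SA/SA mice. Gclc (ENSMUSG00000032350), on chromosome 9 from 77754535 to 77794485 on the forward strand, was at 153, 170, 198 and 140 CPM in WT mice and at 147, 133, 116 and 135 CPM in SA/SA mice. The overlap came from SA/SA replicate 1, which was above WT replicate 4. The means were 165 ± 25.2 and 133 ± 12.8 CPM (SD, n = 4), a difference of -19.8% (95% interval -34.2% to -2.26%) and a log2 fold change of -0.32 (SE 0.13, 95% interval -0.60 to -0.033), with an unadjusted p of 0.0323, an adjusted p of 0.993 and an exact permutation p of 0.0571. Most of this stood in the high series (-0.57) and little in the low series (-0.057), and the difference between the series was -0.51 (SE 0.19), with an unadjusted p of 0.0281 and an adjusted p of 0.390 in edgeR. Of all genes, 11.1% were at an unadjusted p under 0.05 in this interaction test. Without SA/SA replicate 3, the mouse with the immune transcripts, the log2 fold change was -0.26 and no member was at an unadjusted p under 0.05 between the genotypes. No member was so without WT replicate 3, SA/SA replicate 2 or SA/SA replicate 4 either, where the log2 fold change of Gclc was -0.22, -0.31 and -0.33.

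Gclm (ENSMUSG00000028124), on chromosome 3 from 122245557 to 122270732 on the forward strand, was at 102, 85.8, 101 and 87.2 CPM in WT mice and at 77.4, 85.5, 78.1 and 84.3 CPM in SA/SA mice. It was the only 1 of the 10 genes in which the genotypes did not overlap, against 2.30% of all genes tested, or 1.36% that were lower in SA/SA, and the gap between the nearest mice, WT replicate 2 and SA/SA replicate 2, was narrow. The means were 94.0 ± 8.64 and 81.3 ± 4.16 CPM (SD, n = 4), and the log2 fold change was -0.21 (SE 0.098, 95% interval -0.43 to 0.010). The edgeR p was 0.0596 before adjustment, and the exact permutation p was 0.0286, the smallest that 4 mice against 4 can give. Unlike Gclc, Gclm had nearly the same difference in the low (-0.22) and the high series (-0.19). Within libraries, the ratio of Gclc to Gclm counts was 1.502 to 1.98 in WT and 1.48 to 1.90 in SA/SA mice, which overlapped. A processed pseudogene, Gm6061, lies within Gclm on the same strand with at most 95.9 counts in a library, and Gm17494 on the opposite strand with at most 30.1, beside up to 5451 for Gclm.

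Nqo1 (ENSMUSG00000003849), on chromosome 8 from 107388225 to 107403206 on the reverse strand, encodes a quinone reductase and is among the most used readouts of NRF2. It was at 13.2, 9.57, 11.01 and 10.3 CPM in WT mice and at 12.0, 11.5, 13.0 and 9.45 CPM in SA/SA mice. The highest mouse was WT replicate 1 and the lowest SA/SA replicate 4, and the genotypes overlapped over nearly their whole range. With means of 11.01 ± 1.56 and 11.5 ± 1.48 CPM (SD, n = 4), the log2 fold change was 0.060 (SE 0.14, 95% interval -0.26 to 0.38), with an edgeR p of 0.689. Its sign was not stable: it was -0.0015 without WT replicate 2 and -0.0029 without SA/SA replicate 3, and the difference was -0.13 in the low and 0.25 in the high series.

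Txnrd1 and Srxn1 return oxidised thiol proteins to their reduced form: TXNRD1 is the cytosolic thioredoxin reductase, a selenoprotein, and SRXN1 (sulfiredoxin) repairs overoxidised peroxiredoxins. Txnrd1 (ENSMUSG00000020250), on chromosome 10 from 82833951 to 82897712 on the forward strand, was at 128, 119, 106 and 102 CPM in WT mice and at 120, 128, 131 and 110 CPM in SA/SA mice. The log2 fold change was 0.10 (SE 0.11, 95% interval -0.14 to 0.34), with an edgeR p of 0.363, and the difference was 0.0053 in the low and 0.20 in the high series. Eid3 on the same strand and 2 transcripts on the other, Gm38560 and Gm47073, lie within the bounds of Txnrd1.

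Srxn1 (ENSMUSG00000032802), on chromosome 2 from 152105516 to 152111376 on the forward strand, was at 96.4, 75.4, 72.4 and 82.1 CPM in WT mice and at 117, 74.1, 81.0 and 101 CPM in SA/SA mice. In this gene the mice separated by animal number and not by genotype: the low series held 82.1 to 117 CPM and the high series 72.4 to 81.0 CPM. The genotype difference was 0.19 on the log2 scale (SE 0.16, 95% interval -0.16 to 0.55), with an edgeR p of 0.246, and came down to 0.068 without SA/SA replicate 1, the highest mouse. The high series was lower than the low series by a log2 fold change of -0.38 (SE 0.10, 95% interval -0.61 to -0.15), with an unadjusted p of 0.00423 and an adjusted p of 0.206 in edgeR, and an adjusted p of 0.0355 in DESeq2. The call therefore depended on the tool.

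Sod1 (ENSMUSG00000022982), on chromosome 16 from 90220754 to 90226329 on the forward strand, encodes the copper-zinc superoxide dismutase of the cytosol. It was at 802, 1119, 911 and 918 CPM in WT mice and at 951, 1067, 1055 and 1054 CPM in SA/SA mice. The WT mice held both the highest and the lowest value, so the genotypes overlapped, and 3 SA/SA mice lay close together with replicate 1 below them. The log2 fold change was 0.14 (SE 0.12, 95% interval -0.13 to 0.40), with an edgeR p of 0.272, and the difference was 0.22 in the low and 0.071 in the high series. A near-identical copy, Gm8566 (97.8% identity over 465 bases), held at most 234 counts in a library, and Scaf4, which overlaps the 3′ end on the opposite strand, at most 1653, beside up to 56170 for Sod1.

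Sod2 (ENSMUSG00000006818), on chromosome 17 from 13006846 to 13040063 on the forward strand, encodes the manganese superoxide dismutase of mitochondria. It was at 146, 150, 131 and 121 CPM in WT mice and at 140, 156, 158 and 134 CPM in SA/SA mice. The genotypes overlapped, with SA/SA replicates 2 and 3 the highest of the 8 mice and WT replicates 3 and 4 the lowest. The log2 fold change was 0.10 (SE 0.11, 95% interval -0.14 to 0.34), with an edgeR p of 0.369, and the difference was 0.046 in the low and 0.16 in the high series.

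Gpx1 (ENSMUSG00000063856), on chromosome 9 from 108338903 to 108340343 on the forward strand, encodes glutathione peroxidase 1, a selenoprotein that reduces hydrogen peroxide with glutathione. It was at 1636, 1884, 1582 and 1815 CPM in WT mice and at 1765, 1929, 1527 and 1973 CPM in SA/SA mice. Both the highest and the lowest mouse were SA/SA, and the log2 fold change was 0.056 (SE 0.12, 95% interval -0.20 to 0.32), with an edgeR p of 0.641. The difference was 0.11 in the low and -0.0090 in the high series.

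**Figure D2:**
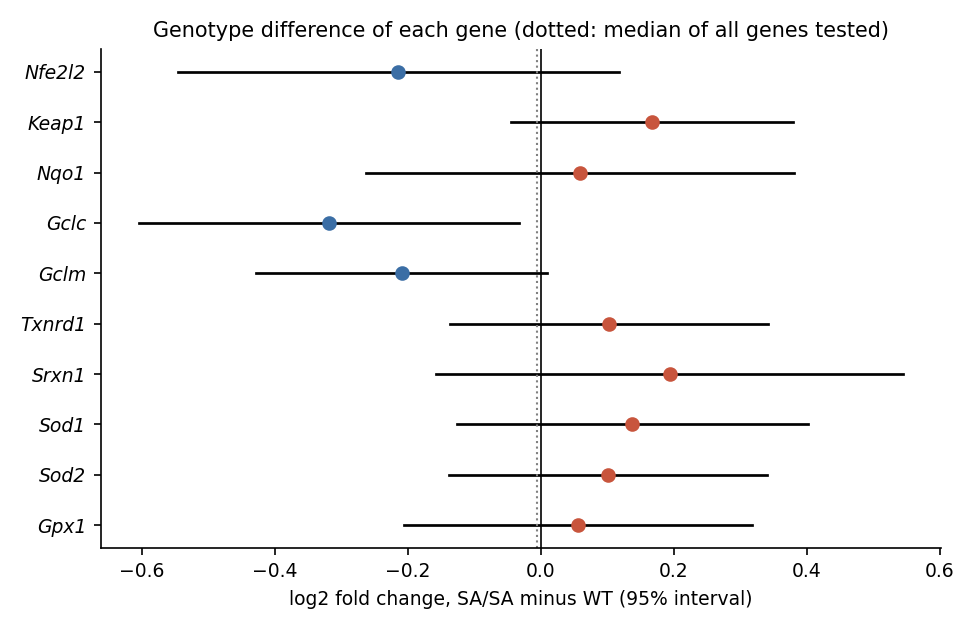
Log2 fold change of each gene, SA/SA minus WT (horizontal axis), with its 95% interval from edgeR as a line, blue points for lower and red points for higher means in SA/SA, and a dotted line at the median of all genes tested (-0.0050). The interval of Gclc (-0.60 to -0.033) alone leaves out 0, before any adjustment for the number of genes.

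The 10 genes differed in how far they varied between mice. The range over all 8 mice was 0.31 on the log2 scale for Keap1, the narrowest, and 0.78 for Gclc, the widest, with Srxn1 (0.69) and Nfe2l2 (0.64) next. The median SE of the genotype difference was 0.12 over the 10 genes and 0.19 over all genes tested, which were not matched to them for count. The widest of the 95% intervals of the 10 genes reached 0.35 on either side of its estimate. These intervals still hold differences larger than the estimates themselves, so a p above the threshold does not show that the genotypes are alike.

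Levels can be compared between genes only per length, and were divided by the length of the longest principal transcript. On this scale of CPM per kilobase, Gpx1 had a median of 1670 over the 8 mice and Sod1 of 1564, ranges that overlapped, and both were well above the remaining genes. Gclc (41.9), Txnrd1 (33.9), Srxn1 (29.0), Nfe2l2 (25.9), Sod2 (24.4), Keap1 (19.98) and Gclm (15.3) followed, and in this order each overlapped its neighbour in range. Nqo1 was the lowest, at 7.25, and did not overlap Gclm. The order in the middle rests on the transcript chosen: per kilobase of coding sequence, Sod2 moved from place 7 to place 3 and Gclm from 9 to 5, while Gpx1, Sod1 and Nqo1 kept places 1, 2 and 10.

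Across the animal numbers, with genotype as a term, none of the 10 genes and none of the 14629 genes tested (0% called) passed an adjusted p of 0.05 in edgeR, where the smallest was 0.0618. At an unadjusted p under 0.05 stood 1 of the 10, Srxn1, against 12.8% of all genes, and 1 did not overlap between the series, again Srxn1, against 6.85%. DESeq2 called 408 genes (2.96%), Srxn1 among them and no other member. The genotype difference had opposite signs in the series for 3 of the 10 genes, Nfe2l2, Nqo1 and Gpx1, against 54.9% of all genes. In Gpx1 the change of sign was slight, with 0.11 in the low and -0.0090 in the high series. The interaction test called none of the 10 genes and no gene of the 14629 (0%) in edgeR, with a smallest adjusted p of 0.0851, and Nfe2l2 and Gclc were the members at an unadjusted p under 0.05. DESeq2 called 285 genes (2.07%) in this test and no member.

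**Figure D3:**
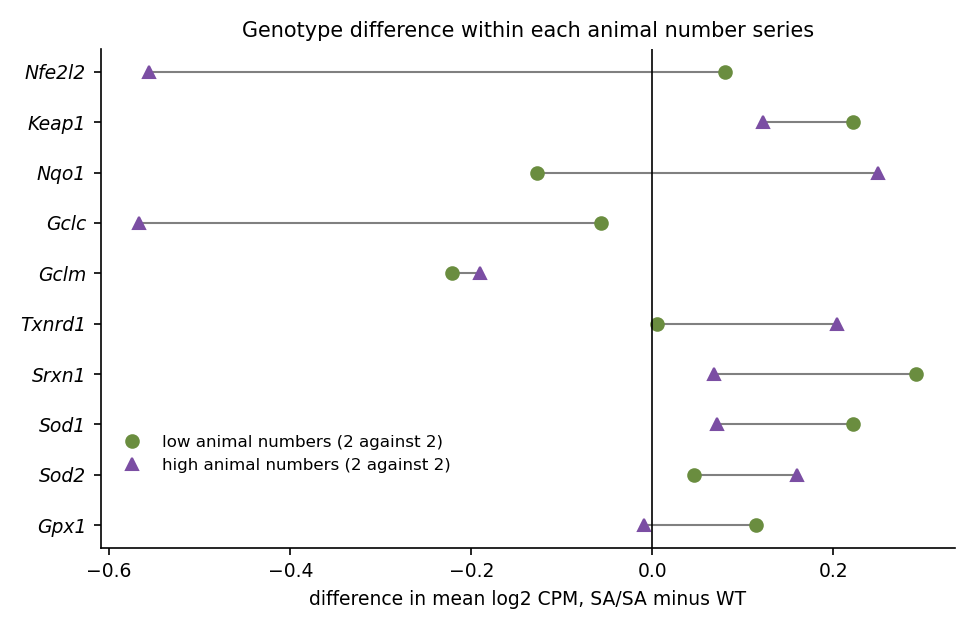
Difference in mean log2 CPM, SA/SA minus WT (horizontal axis), for each gene within the low (circles) and the high (triangles) animal numbers, 2 mice against 2, joined by a line. Nfe2l2 and Gclc have the longest lines, from 0.081 to -0.56 and from -0.057 to -0.57, and Gclm among the shortest.

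Summed markers of hepatocytes and of Kupffer cells were higher in SA/SA replicates 2 and 3 than in SA/SA replicates 1 and 4. The 10 Kupffer cell and macrophage markers were all higher in SA/SA, with 0.23 as the median log2 fold change, but their median difference was -0.45 in the low and 0.85 in the high series. None passed the test, and they summed to 263 to 522 CPM in WT and 269 to 586 CPM in SA/SA mice, the highest being SA/SA replicate 2. The summed hepatocyte markers were 127110 and 131564 CPM in SA/SA replicates 2 and 3, the mice in which Nfe2l2 was lowest. Alb alone made up 90811.5 and 97392.4 CPM of these sums. Of the 9 hepatocyte markers tested, 5 were higher and 4 lower in SA/SA, with a median log2 fold change of 0.052. Of 8 stellate cell markers, 7 were lower in SA/SA, with a median of -0.35 (-0.034 in the low and -0.63 in the high series), and of 8 endothelial markers 6 were, with a median of -0.20. The 5 red blood cell markers were all lower, with a median of -0.54 in edgeR. In mean log2 CPM, a different measure, their median difference was -0.051 in the low and -0.52 in the high series. Their lowest and highest sums were both in WT mice, 411 CPM in replicate 1 and 2647 CPM in replicate 4. No marker of these 3 cell types was at an unadjusted p under 0.05, and their sums overlapped between the genotypes (470 to 619 and 371 to 574 CPM for stellate cells, 170 to 243 and 135 to 187 CPM for endothelial cells, 411 to 2647 and 951 to 1154 CPM for red blood cells). The part of these cell types in the values of Nfe2l2 and Gclc was not tested. Without SA/SA replicate 3, the interaction estimate of Nfe2l2 was -0.68 and its genotype difference -0.14.

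Around the 10 genes, 84 further genes of the pathway and of redox defence were followed in 5 lists, and 83 of them passed the filter on low counts. None passed an adjusted p of 0.05 between the genotypes in edgeR, DESeq2 or limma-voom. In none did the genotypes fail to overlap, against 2.30% of all genes tested. At an unadjusted p under 0.05, 4 of 83 were higher in SA/SA and 0 lower, against 1.42% and 1.98% of all genes tested. The log2 fold change was above 0 for 50 and below 0 for 33, with a median of 0.049.

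Those 4 genes were Hmox1, Gsta2, Glrx and Gsto1, all with an adjusted p of 0.993 in edgeR. Hmox1, which encodes the heme-degrading enzyme heme oxygenase 1, was at 18.9 ± 5.52 CPM in WT and 32.0 ± 14.3 in SA/SA (n = 4 each, SD), a log2 fold change of 0.76 (SE 0.34). It was at 18.3, 25.8, 12.3 and 19.4 CPM in WT mice and at 29.1, 37.1, 48.0 and 13.9 CPM in SA/SA mice. Here too the high series held most of the difference, 1.24 against 0.096 in the low series, and the difference between these was 0.97 (SE 0.55), with an unadjusted p of 0.115. The two-sided exact permutation p of Hmox1 was 0.171, and in limma-voom it was at an unadjusted p of 0.0995, so its place among these 4 genes depended on the test. Hmox1 is also abundant in macrophages that take up red blood cells. The summed Kupffer cell markers were 322, 263, 306 and 522 CPM in WT replicates 1 to 4. In SA/SA replicates 1 to 4 they were 405, 586, 435 and 269 CPM. Whether these cells had a part in Hmox1 was not tested.

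The other 3 encode enzymes that act with glutathione. Gsta2, an alpha-class glutathione transferase, was at 13.8 ± 3.09 and 18.1 ± 2.48 CPM, a log2 fold change of 0.40 (SE 0.17). Glrx, or glutaredoxin 1, was at 65.3 ± 11.9 and 82.0 ± 5.91 CPM (0.33, SE 0.13), and Gsto1, an omega-class transferase, at 124 ± 11.01 and 144 ± 7.19 CPM (0.23, SE 0.097). Their exact permutation p-values were 0.0857, 0.0857 and 0.0571. In the same order, the differences were 0.54, 0.15 and 0.0997 in the low series and 0.28, 0.53 and 0.36 in the high series. Alpha-class transferase genes are close in sequence, so the division of reads between Gsta2 and its relatives is uncertain.

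By list, the 11 partners and regulators of NRF2 (small MAF proteins, BACH1, the cullin ligase and others) had 7 log2 fold changes above 0 and a median of 0.053, from Cand1 (-0.20), which regulates cullin ligases, to Maff (0.23), a small MAF protein. Of the other NRF2 target genes, 26 of 27 were tested, with 16 above 0 and a median of 0.041, from Me1 (-0.33), the NADPH-making malic enzyme, to Hmox1. The 19 genes of glutathione synthesis and use had a median of 0.041, with 11 above 0, from Ggt1 (-0.58), a glutathione-degrading enzyme that was at most 0.299 CPM in a mouse, to Gpx7 (0.69), which was at most 2.72 CPM. The 18 thioredoxin, peroxiredoxin and sulfoxide reductase genes had 12 above 0 and a median of 0.074, from Sesn3 (-0.13) to Sesn1 (0.41), both sestrins. The 9 genes of catalase and superoxide handling had 4 above 0 and a median of -0.040, from Nox4 (-0.34) to Cyba (0.33), which encode a superoxide- and peroxide-making oxidase and its partner subunit. None of these end genes passed the test.

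**Figure D4:**
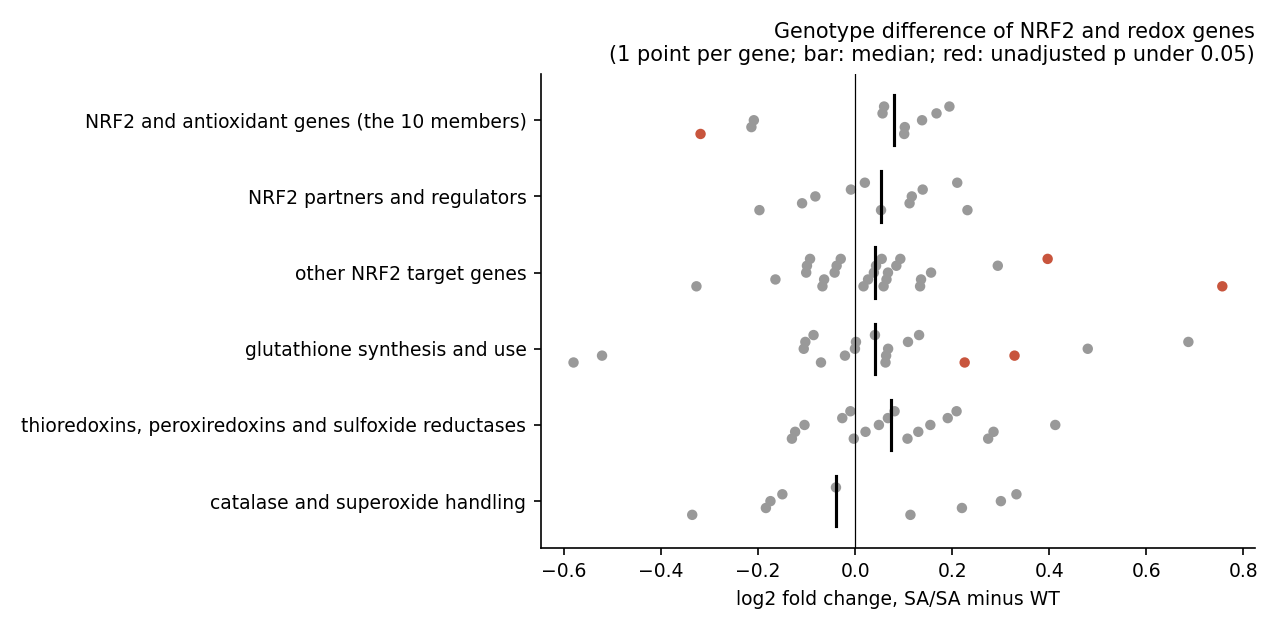
Log2 fold change, SA/SA minus WT (horizontal axis), of the 10 genes and of 5 further lists (rows), 1 point per gene tested, with bars at the medians and red points for genes at an unadjusted p under 0.05. The medians lie between -0.040 and 0.080, and red points are Gclc, Hmox1, Gsta2, Glrx and Gsto1.

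Between the animal numbers, the same 83 genes had 17 higher and 3 lower in the high series at an unadjusted p under 0.05, against 6.64% and 6.19% of all genes tested. None passed the adjusted threshold in edgeR, while DESeq2 called 4 of them, against 2.96% of all genes: Maff, Msrb1 and Prdx2, higher in the high series, and Nox4, lower in it. Msrb1 and Prdx2 were chosen after their values were seen. Among the 10 genes these counts were 0 and 1. Maff had the highest of these estimates among the genes named above: it was at 1.39 to 2.53 CPM in the low series and at 1.96 to 13.1 CPM in the high series, ranges that overlapped, a log2 fold change of 2.25 (unadjusted p 0.00129, adjusted p 0.163 in edgeR and 0.000173 in DESeq2). Me1 had a genotype difference of -0.92 in the high and 0.20 in the low series, and its interaction estimate was -1.13 (SE 0.28), with an adjusted p of 0.282 in edgeR and 0.0183 in DESeq2. In this interaction test edgeR called 0 and DESeq2 4 of the 83 genes, against 2.07% of all genes: Me1 and Ephx1, with estimates below 0, and Chac1 and Cybb, with estimates above 0. The last 3 were chosen after their values were seen.

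The genes whose pattern over the 8 mice was most like that of Nfe2l2, by the root mean square difference of mean-centred log2 CPM, were Tmem198b (0.062), Pabpn1 (0.063) and Snx18 (0.069), where the SD of Nfe2l2 itself was 0.25. For Nqo1, with an SD of 0.18, they were Hlcs (0.065), Ttc37 (0.067) and St7 (0.071). None of these is a member or stands on the 5 lists. In Pabpn1 the WT mice lay between 72.6 and 82.3 CPM and the SA/SA mice between 56.8 and 86.0. The spread was wider in SA/SA, as in Nfe2l2, which follows from choosing Pabpn1 by its likeness to Nfe2l2.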

How the data were processed

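Liver RNA of 4 WT and 4 SA/SA mice was analysed. The authors deposited expected counts per gene, estimated with salmon and scaled for average transcript length, without library size normalisation. The submitters' processing notes name GRCm38, bcl2fastq, STAR, SAMtools, MultiQC and DESeq2. The salmon version, the annotation and the use of strand in counting are not given in the sources used here. Columns were matched to mice by animal number. Length scaling can move a gene whose isoforms differ between mice.

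The members and lists were chosen with earlier results of these data known. Expected counts were rounded, filtered with filterByExpr (14629 of 45706 genes) and tested with edgeR 4.0.16 (R 4.3.3) by glmQLFTest after TMM normalisation, with Benjamini-Hochberg adjustment over all genes tested. CPM used TMM-normalised totals, and log2 CPM a prior count of 2. Standard errors and 95% intervals came from the F statistic. Permutation tests were exact and two-sided on log2 CPM. Alternatives were DESeq2 1.42.0, limma-voom (limma 3.58.1), other scalings and filters, blocks and leaving out each mouse. Tests were first tried on simulated counts. Coordinates are from GENCODE M21 (45143 of 45706 identifiers matched). No 2 libraries were copies (chi-square per gene at least 40.2 for each pair).

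Named genes were all members, Plin5 and, of the 5 lists, each gene at an unadjusted p under 0.05 between the genotypes and the highest and lowest fold change, with 3 genes most like Nfe2l2 and 3 most like Nqo1. Same-numbered replicates are separate mice, and the labels do not say that a number marks a shared litter or day.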

Additional observations from a re-analysis of the deposited data

Results flagged for a closer look

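Of 20 groups of 4 mice (10 genes in 2 genotypes), 1 held a mouse far from the others. Sod1, the cytosolic superoxide dismutase, was at 951 CPM in SA/SA replicate 1, where the other 3 SA/SA mice lay between 1054 and 1067 CPM. The WT mice spanned 802 to 1119 CPM, so this mouse lay within the WT range, and such a gap arises in about 1 of 20 groups by chance.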

How the results depend on the processing

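Each member's genotype difference was recomputed under 16 alternatives, 160 values in all, and none gave a member past the threshold. The direction changed in 2 values, both of Nqo1, at -0.0015 without WT replicate 2 and -0.0029 without SA/SA replicate 3. The members higher in SA/SA numbered 6 to 7 and their median 0.050 to 0.14 when a mouse was left out, and the median was 0.042 with library size alone. With a mouse left out, Nqo1 ranged from -0.0029 to 0.16, Nfe2l2 from -0.31 to -0.11, Gclc from -0.39 to -0.22, Gclm from -0.25 to -0.17, Srxn1 from 0.068 to 0.30, Keap1 from 0.13 to 0.24, Sod1 from 0.075 to 0.23, Txnrd1 from 0.055 to 0.17, Sod2 from 0.045 to 0.15 and Gpx1 from 0.0097 to 0.13. The lowest of these last 4 ranges came with WT replicate 1 left out for Sod1, WT replicate 4 for Txnrd1 and Sod2 and SA/SA replicate 4 for Gpx1, and the highest with WT replicate 2 left out for Sod1 and Sod2, WT replicate 1 for Txnrd1 and SA/SA replicate 3 for Gpx1. Nfe2l2 was closest to 0 without SA/SA replicate 2. Counts over all genes moved more. Between the genotypes DESeq2 called 6 genes in place of 0. Between the animal numbers DESeq2 called 408 genes and 1 member, no filter on low counts 514 genes and a fit without genotype 12, and leaving out a mouse gave 0 to 111 genes, the last without WT replicate 3. In the interaction, whose alternatives were chosen after the data were seen, DESeq2 called 285 genes, limma-voom 1, and leaving out a mouse 0 to 40, the last without WT replicate 4. The causes of these shifts were not tested.

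With the replicate number as a block, 0 genes and 0 members passed, 579 genes and 0 members were at an unadjusted p under 0.05, and the members' median was 0.082. Correlations of same-numbered mice were 0.056, 0.17, -0.11 and 0.13. WT replicates 1, 2 and 4 correlated best with the SA/SA mouse of their own number, and WT replicate 3 with SA/SA replicate 4 (0.14). Of the SA/SA mice, replicates 1 and 2 correlated best with their own number, and replicates 3 and 4 did not. Same-numbered mice also share an animal number series, so these correlations cannot tell whether the numbers pair the mice. The fewest counts of a member in a library were 478, and 4 mice a group leave intervals of 0.21 to 0.35 on either side of the log2 estimates.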

Other observations

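The ratio of Nfe2l2 to Keap1 counts within a library, which needs no scaling between libraries, was 1.002, 0.909, 1.05 and 0.947 in the WT mice and 0.896, 0.576, 0.648 and 0.870 in the SA/SA mice. The genotypes did not overlap in it, with a mean log2 difference of -0.41, and the difference was -0.14 in the low and -0.68 in the high animal numbers. This ratio was chosen after the values of both genes were seen, it is 1 of 4 ratios computed, and no test is given for it. In the other 3 ratios (Gclc to Gclm, Gclm to Nqo1 and Sod1 to Sod2) the genotypes overlapped.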
